A study of Mus musculus with 44 samples.

Results

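The data described here are 724 distal regions of the mouse genome that carried acetylated lysine 27 of histone H3 (H3K27ac) in hepatocytes of injured livers and in neither of the cell types that bracket them, normal hepatocytes and bile duct cells. They were found by joining overlapping H3K27ac peaks of 11 libraries into 106194 regions. Of these, 67571 overlapped no peak of H3K4me3, the mark of active promoters, in any of 11 libraries. A region was a member if it then had an H3K27ac peak in both libraries of early cells and in no library of normal hepatocytes or biliary cells. Members made up 13.2% of the 5477 distal regions with a peak in both early libraries. Members were thus chosen by their H3K27ac in early, normal and biliary cells and by the absence of H3K4me3, so these values are given as a description only.

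H3K27ac is laid down at active enhancers and promoters by the acetyltransferases p300 and CBP. H3K4me1 marks enhancers more broadly and can be present before an enhancer is acetylated or after acetylation is lost, while H3K27me3 is the mark of Polycomb repression. In liver fed DDC, which causes porphyrin plugs and damage of the bile ducts, some hepatocytes take on biliary markers, and distal elements are where much cell type identity and stress response is encoded.

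Chromatin was profiled in Rosa26-LSL-Cas9-EGFP mice by an antibody-directed Tn5 cutting assay with pAG-Tn5, and all groups carried this allele. Formalin at 0.1 to 0.15% was used for all libraries. All mice received AAV8-TBG-Cre, a virus in which the hepatocyte promoter TBG drives Cre and so switches on EGFP, at a dose of 5e11 genome copies. Normal hepatocytes (Hep, n = 2 libraries per mark) were from mice on normal diet. Early (EGFP+ CD24-, n = 2), intermediate (EGFP+ CD24+ EPCAM-, n = 2) and late (EGFP+ CD24+ EPCAM+, n = 3) cells were sorted from mice given 0.1% DDC for 8 to 9 weeks, from 1 week after the virus. Biliary epithelial cells (BEC, EGFP- EPCAM+, n = 2) were sorted from livers of the same treatment. Hep cells were purified on a Percoll gradient and the others by flow cytometry, so diet, isolation and stage cannot be told apart in any comparison with Hep. No age or guide RNA is stated, and nothing states that libraries of a stage came from separate animals, so p-values measure the spread between these libraries.

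Lists held 23511 to 51807 peaks for H3K27ac and 12785 to 77991 for H3K4me1, and read depth is unknown. Early 1 had the shortest list of both marks, and late 1 and late 3 had short H3K4me1 peaks (medians of 88 and 78 bp). Late 1 also had short H3K27ac and H3K4me3 peaks (medians of 94 and 89 bp). The H3K27ac medians of the intermediate libraries were 215 and 174 bp. Covered base pairs thus depend on peak length as well as on presence. As a check of the labelled cells, H3K4me3 stood at 17 and 20 of 21 hepatocyte function promoters in early cells, against 19 and 18 in Hep. It stood at 10 and 11 of 20 biliary marker promoters in early cells, against 8 and 9 in Hep and 18 and 18 in BEC. Of the markers of other cells, early 1 and early 2 had H3K4me3 at 1 and 1 of 12 stellate, 1 and 2 of 12 endothelial, 1 and 0 of 12 macrophage, 1 and 0 of 11 lymphocyte and 0 of 9 neutrophil promoters.

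Sequence could be shown for the few members that reach into a promoter window, 250 bases before to 50 after an annotated start, of RefSeq (GRCm38.p6, the assembly of mm10). There were 9 such members, and in 5 of them the overlapping stretch held the letters TGANTCA, read the same on both strands, which are the binding motif of AP-1. AP-1 is the family of Jun and Fos factors that responds to stress and growth signals. Those 5 stretches are printed 5′ to 3′ on the strand of the transcript that the window belongs to, with the match in capitals. The windows are those of Lif and Lipn themselves and of non-coding transcripts next to Rhou, Arpp21 and Kcne2.
Lif region, chr11:4257318-4257408, plus strand: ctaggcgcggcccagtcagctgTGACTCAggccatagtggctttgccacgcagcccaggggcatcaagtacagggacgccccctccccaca
Lipn region, chr19:34067108-34067407, plus strand: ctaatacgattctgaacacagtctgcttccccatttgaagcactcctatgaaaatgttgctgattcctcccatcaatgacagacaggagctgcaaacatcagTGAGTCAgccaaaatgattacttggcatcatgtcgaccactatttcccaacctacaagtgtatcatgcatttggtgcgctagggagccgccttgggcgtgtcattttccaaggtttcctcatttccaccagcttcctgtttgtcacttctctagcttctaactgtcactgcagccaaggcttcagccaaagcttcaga
Rhou region, chr8:123696420-123696706, minus strand: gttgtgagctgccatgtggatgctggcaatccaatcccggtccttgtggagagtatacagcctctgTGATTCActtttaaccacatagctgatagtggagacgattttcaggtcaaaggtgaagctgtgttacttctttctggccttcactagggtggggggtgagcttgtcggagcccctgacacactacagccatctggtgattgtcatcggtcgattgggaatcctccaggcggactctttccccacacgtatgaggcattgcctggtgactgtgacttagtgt
Arpp21 region, chr9:112256451-112256623, plus strand: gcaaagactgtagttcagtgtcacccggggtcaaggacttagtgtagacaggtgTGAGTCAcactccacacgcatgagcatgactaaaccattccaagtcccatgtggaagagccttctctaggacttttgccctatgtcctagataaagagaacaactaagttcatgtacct
Kcne2 region, chr16:92245867-92246043, plus strand: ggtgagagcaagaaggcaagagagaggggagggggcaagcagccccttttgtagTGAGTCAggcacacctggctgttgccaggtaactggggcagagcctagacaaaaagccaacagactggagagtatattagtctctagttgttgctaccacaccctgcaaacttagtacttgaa
Lif encodes a cytokine of the interleukin 6 family, and Lipn a lipase. Both early libraries had a peak in each of these regions by the rule. The 9 stretches had a median of 177 bases. The same letters were present in 9.09% of 22 regions shared by early cells and Hep, in 36.4% of 11 regions shared by early cells and BEC, and in 19.9% of the 482 non-member distal regions that reach into a window, with a median of 181 bases. Of 32851 whole windows of 300 bases, 7.81% held them. The letters TGACNNNGC, the antioxidant response element bound by NRF2, were searched on both strands and found in the stretches of Lif and Nat8f4 (2 of 9, against 12.0% of the 482), and GGAATG, the motif of TEAD, in 1 of 9 against 15.4%. In the Lif stretch the antioxidant letters did not overlap the AP-1 letters. These comparisons were added after the members' matches had been seen, they rest on 9 stretches, and a match in letters does not show that a factor was bound.

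The members were longer than distal regions at large, shorter than those shared with Hep or BEC, and mostly far from genes' starts. Their median length was 358.5 bp, with a range of 193 to 1020 bp, against 297 bp for all distal regions seen in 2 or more libraries. The median was 475 bp for the 1925 distal regions of early cells shared with Hep and 481 bp for the 797 shared with BEC. The shared regions by definition join peaks of Hep or BEC as well. The nearest start of a protein-coding gene lay at a median of 29.8 kb, against 27.6 kb for all 37621 distal regions seen in 2 or more libraries. A start lay within 2500 bp of 44 members (6.08%), and none within 50 kb of 258 (35.6%). Inside genes lay 417 members (57.6%), against 57.4% of all distal regions. Members lay on the 19 autosomes and X, with 60 on chromosome 6, 57 on chromosome 1 and 16 on X.

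The authors' score ranked members in the middle of the early lists. A member's rank is the percentage of peaks in a list that scored as high or higher, so a low rank is a strong peak. The median rank was 59.0% in early 1 and 45.3% in early 2. Regions shared with Hep stood at 48.0% and 33.2%, and those shared with BEC at 47.0% and 25.4%. The membership was narrow at its edge. Just outside the rule, 619 distal regions had a peak in both early libraries and in 1 of the 4 Hep and BEC libraries, 380 of them in 1 Hep library and 239 in 1 BEC library. A further 1244 regions absent from Hep and BEC were found in early 1 alone, and 3640 in early 2 alone. With early 1 left out the rule gave 4445 regions, and with early 2 left out 1982, so the requirement of both early libraries sets the number. Of the 724, 83 had a Hep peak and 76 a BEC peak within 1000 bp, and 371 (51.2%) had no Hep peak within 10 kb.

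**Figure D1:**
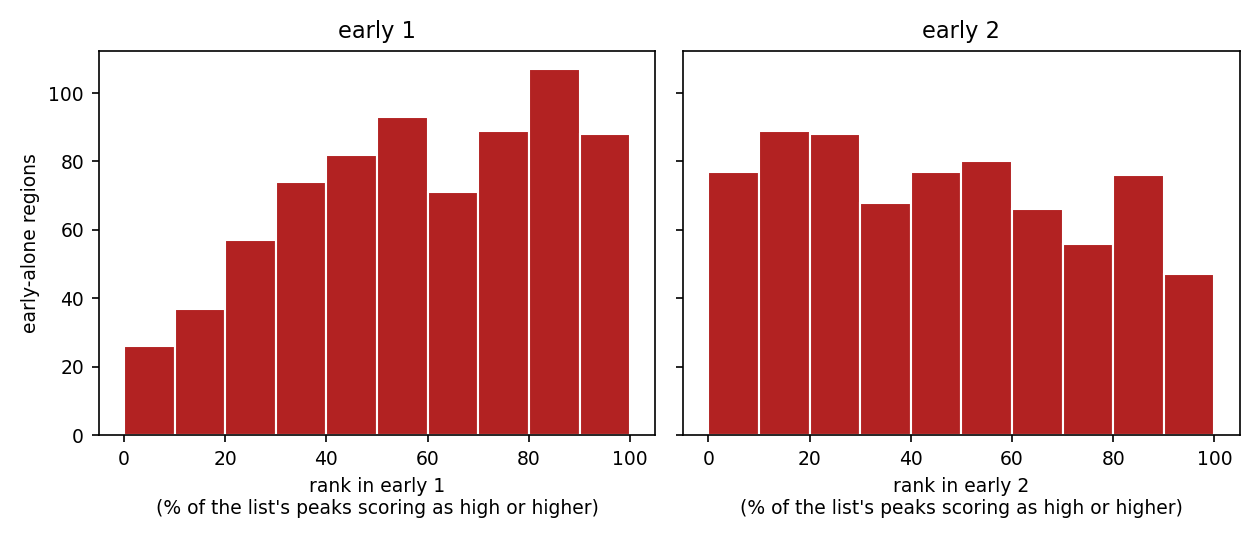
Number of the 724 members (y axis, labelled early-alone) in steps of 10 percentage points of rank, in early 1 (left) and early 2 (right). The label means a peak in early cells and none in Hep or BEC, whatever intermediate and late cells had. Ranks are by the authors' score, and 0% is the strongest peak of the list. Ranks run over almost the whole list in both, with medians of 59.0% in early 1 and 45.3% in early 2.

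The intermediate and late libraries took no part in the choice of members, and they divided the members. H3K27ac was present in 229, 355 and 156 of the 724 regions in the late libraries (31.6%, 49.0% and 21.5%) and in 491 and 424 in the intermediate libraries (67.8% and 58.6%). The mean share was 34.1 ± 13.9% in late cells (SD, n = 3) and 63.2 ± 6.54% in intermediate cells (SD, n = 2). Every late library was below both intermediate libraries. In these sorted bulk samples, fewer cells carrying a mark and less of it per cell cannot be told apart. Regions shared with Hep had 26.6 ± 14.1% in late and 60.3 ± 7.68% in intermediate cells, while those shared with BEC had 93.9 ± 4.38% in late and 97.9 ± 1.24% in intermediate cells. Over all distal regions the shares were 42.6 ± 8.74% in late and 46.2 ± 4.09% in intermediate cells.

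**Figure D2:**
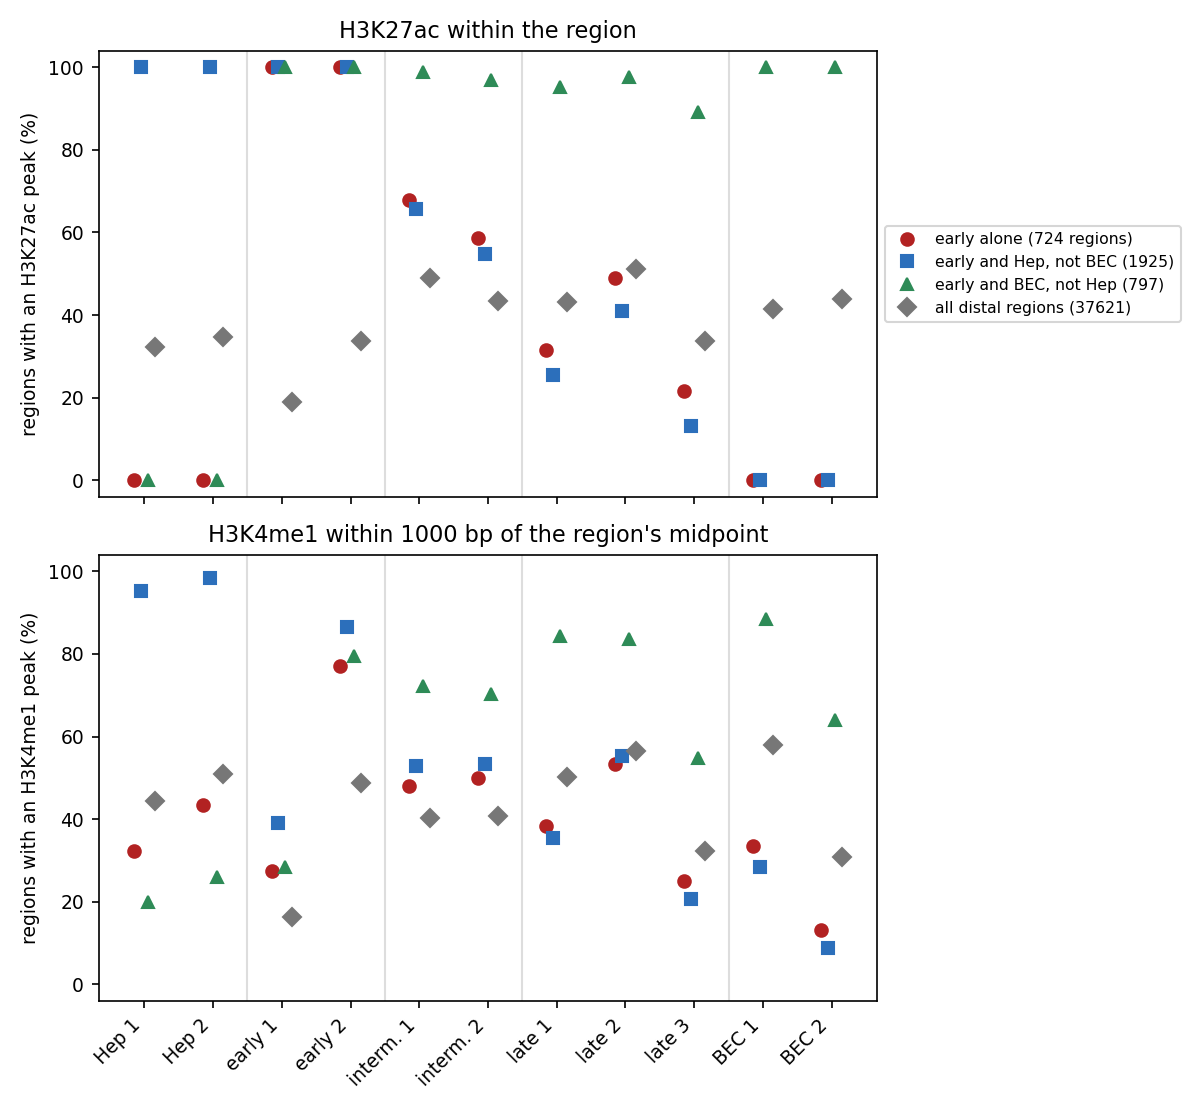
Percentage of regions with an H3K27ac peak (top) and with an H3K4me1 peak within 1000 bp of the midpoint (bottom) in the 11 libraries. Circles are members (labelled early alone), squares regions shared with Hep, triangles regions shared with BEC and diamonds all distal regions. In the top panel the values at 0 and 100% in Hep, early and BEC are set by the rule; in late 1, late 2 and late 3 the circles stand at 31.6%, 49.0% and 21.5%, against 67.8% and 58.6% in the intermediate libraries.

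Of the 724 members, 145 (20.0%) had H3K27ac in none of the 5 intermediate and late libraries, 103 (14.2%) had it in all 5, and 579 (80.0%) in at least 1. Both intermediate libraries had it in 362 members (50.0%), and 70 of these had it in no late library. The reverse pattern was rare, since 26 members (3.59%) had no intermediate peak and at least 1 late peak. Members found in all 5 libraries had a median rank of 51.6% in early 1 and 22.0% in early 2. Members found in none had 66.0% and 67.4%. The part that peak calling near the threshold had in these absences was not tested.

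**Figure D3:**
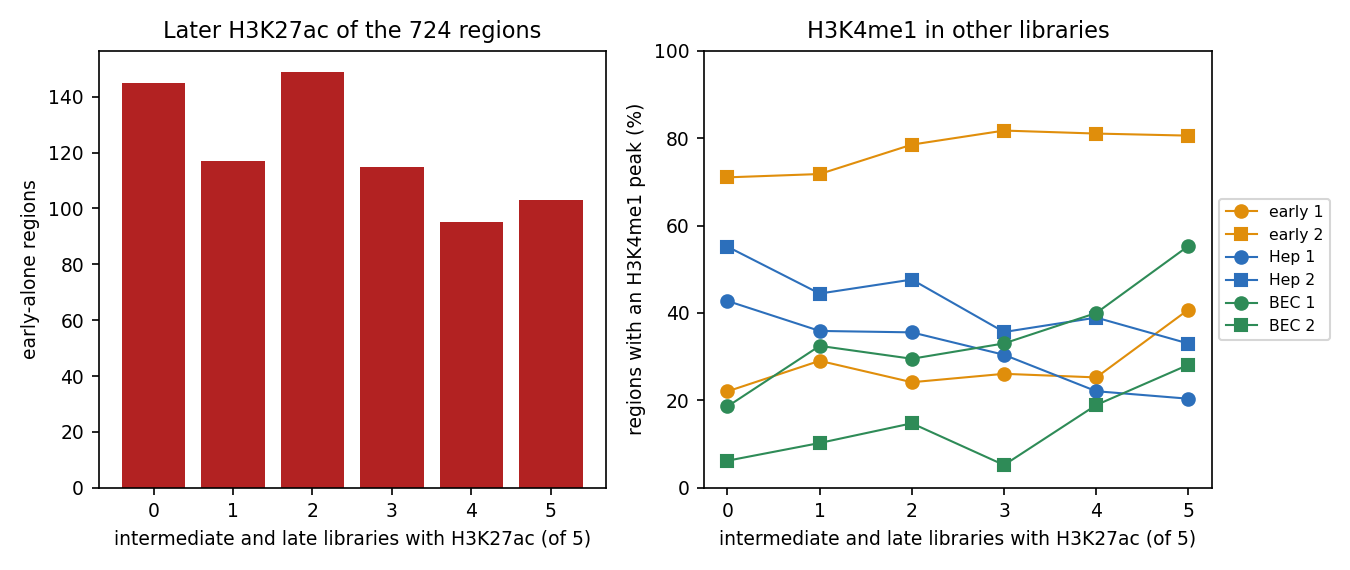
Left, number of members (y axis, labelled early-alone) by how many of the 5 intermediate and late libraries had H3K27ac there (x axis). Of them, 145 had it in none and 103 in all. Right, percentage of the regions of each class with an H3K4me1 peak in each early, Hep and BEC library; the share falls along the x axis in Hep 1 (42.8% at 0, 20.4% at 5) and is higher at 5 (55.3%) than at 0 (18.6%) in BEC 1.

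The 8 best-ranked members in both early lists lay near or inside Kcnab1, Mctp2, Btc, Tgfbr2, Hs6st1, Asf1a, Cldn23 and Cox20. The nearest gene is used here as a name, and no contact with it was measured. Distances are to the nearest annotated start of the gene, not to its body, unless its nearer end is named. The region 36.6 kb from Kcnab1, a potassium channel beta subunit (chr3:64911847-64912633), had 767 and 334 bp under H3K27ac peaks in early, 711 and 326 bp in intermediate and 225, 376 and 226 bp in late libraries. The region inside Mctp2, which encodes a membrane protein with C2 domains (chr7:72096635-72097320), had 354 and 606 bp in early, 507 and 300 bp in intermediate and 198, 369 and 463 bp in late libraries. Both regions thus had peaks in all 7 libraries of DDC-fed EGFP+ cells.

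The next ranks included members near a growth factor gene and a receptor gene. The region 82.7 kb from Btc, which encodes the epidermal growth factor receptor ligand betacellulin (chr5:91319756-91320269), had 428 and 479 bp in early, 232 and 175 bp in intermediate, and 145, 218 and 0 bp in late libraries. The region 87.7 kb from the start of Tgfbr2, the type II receptor of TGF-beta (chr9:116087134-116087647), had 459 and 425 bp in early, 509 and 328 bp in intermediate and 223, 315 and 374 bp in late libraries. Promoter H3K4me3 of neither gene passed the test between early cells and Hep that is described below. The Btc promoter had 872 and 799 bp in early against 833 and 838 bp in Hep, and the Tgfbr2 promoter 1000 and 1218 bp in early against 1122 and 1333 bp in Hep.

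The other leading members with H3K27ac in all 5 later libraries lay near Stim2, a calcium sensor of the endoplasmic reticulum, Ntrk3, the receptor of neurotrophin 3, and Slc24a3, a sodium, potassium and calcium exchanger. The member near Stim2 was 580 kb from its start, and that near Ntrk3 291 kb from the nearer end of the gene. The Slc24a3 region (chr2:145223542-145224028) had 436 and 395 bp in early, 378 and 256 bp in intermediate and 99, 198 and 185 bp in late libraries. Its coverage in every late library was below that of every early and intermediate library.

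The leading members that later cells lacked were near Cox20, Cdh9, Mfn1, Ttll1, Snx10 and Tc2n. Cox20 encodes an assembly factor of cytochrome oxidase, Mfn1 a mitofusin of the outer mitochondrial membrane, and Cdh9 a cadherin. The Cox20 region (chr1:178302319-178302665), 16.5 kb from the start, carried 347 and 221 bp in early libraries, and the other 9 libraries had no H3K27ac there. The Mfn1 region (chr3:32527310-32527634), 1.85 kb from the start, had 325 and 176 bp in early libraries and none elsewhere. All 6 had no peak outside the early libraries by the way they were chosen.

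**Figure D4:**
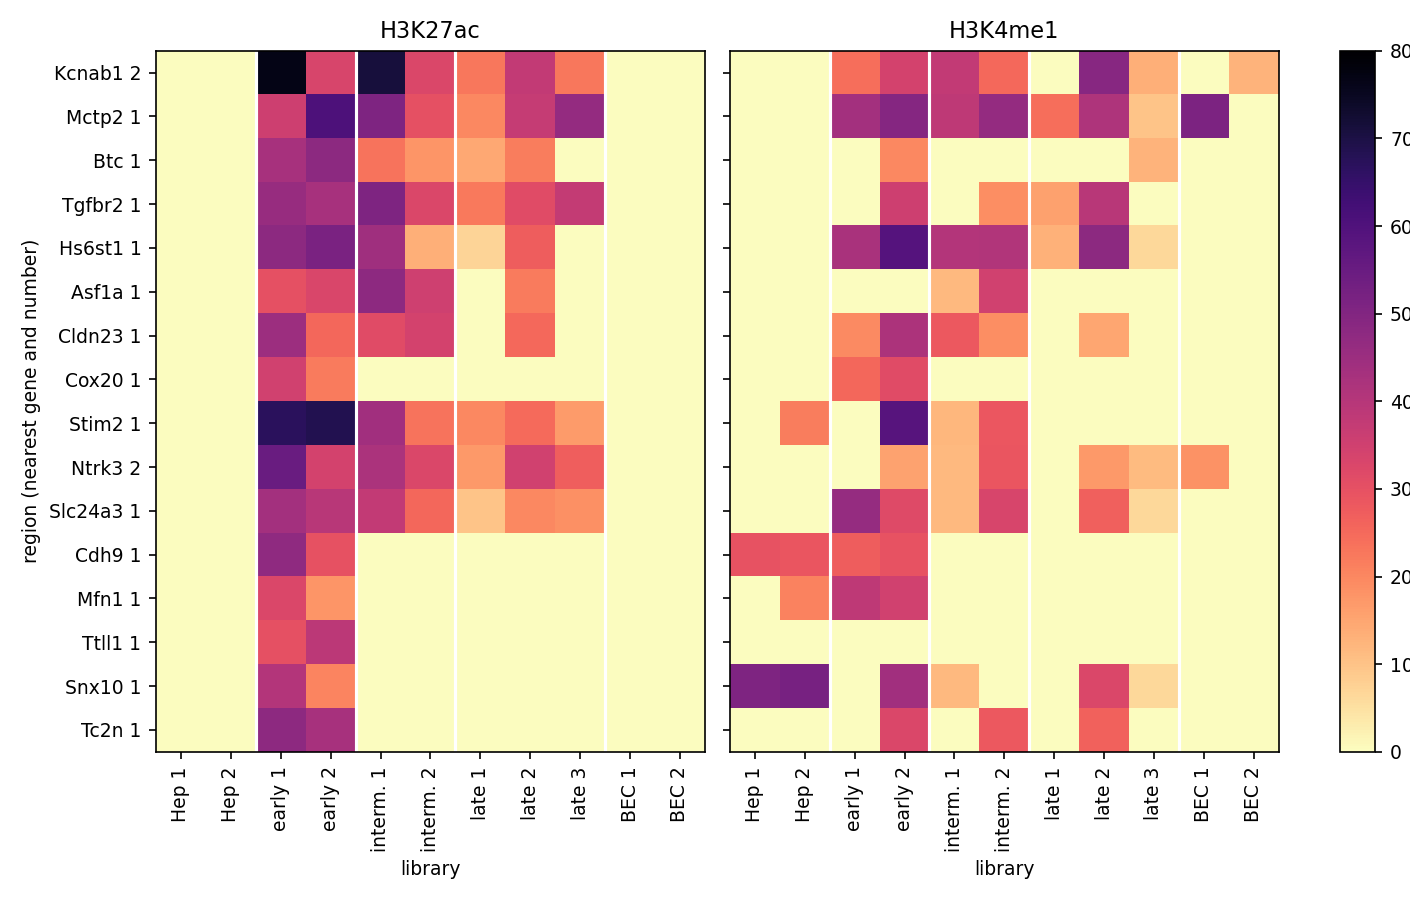
Base pairs under H3K27ac peaks within the region (left) and under H3K4me1 peaks within 1000 bp of its midpoint (right) in each library (columns) for the 16 best-ranked members named by their nearest gene (rows); darker is more, on a scale of 0 to 800 bp. From Kcnab1 to Cox20 rows are in order of rank, then come the 3 others found in all 5 later libraries and, from Cdh9 down, the 5 others found in none of them.

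A direct test compared H3K27ac coverage in late with intermediate cells across all 37621 distal regions with limma, on log2 of the covered base pairs plus 100, so that differences are given on that scale. Calls are at an adjusted p (Benjamini-Hochberg) under 0.05 over all regions. In late cells 66 members (9.12%) were lower and 2 (0.276%) higher, where 1.93% of all regions were called lower and 0.734% higher. The fit takes the spread of each region from all libraries, including Hep and BEC, where the rule left members without coverage. At members those libraries therefore add no spread, and the effect of this on the members' adjusted p-values and counts was not tested. The median difference of the members was -0.55, and that of all distal regions 0. Of the regions shared with Hep 237 were lower (12.3%) and none higher, and of those shared with BEC 5 were lower (0.627%) and none higher. Of the 66 members called lower, all had a peak in both intermediate libraries and 64 had none in any late library. Without intermediate 2 the count lower was 136, and without late 2 it was 149. Without late 1, whose peaks were short, 74 were lower and 7 higher. With peaks of 500 bp 71 were lower and 4 higher. No member was higher with 500 bp added before the log, with equal numbers of peaks, or with regions of 1 library included. None was higher without intermediate 1 or without intermediate 2 either.

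The largest falls were at regions inside or near Ptprk, Plcl2, Cybb, Nek7, Ets1 and Ttc30a1. The region inside Ptprk, a receptor tyrosine phosphatase (chr10:28361465-28362317), had no H3K27ac in the 3 late libraries against 284 and 579 bp in the intermediate ones (limma adjusted p = 0.00121). The region 142 kb from the nearer end of Ets1, a transcription factor (chr9:32899817-32900173), had none in late libraries against 251 and 229 bp in intermediate ones (limma adjusted p = 0.000657). The Cybb region on X (chrX:9483060-9483503) had 51, 0 and 0 bp in late libraries, against 353 and 325 bp in intermediate libraries (limma adjusted p = 0.0018). Cybb encodes the phagocyte NADPH oxidase subunit, a gene of macrophages, and its promoter had no H3K4me3 in any of the 11 libraries. The Cybb promoter had 170 bp of H3K27ac in intermediate 2 and none in any other library. The macrophage and Kupffer promoters with H3K4me3 numbered at most 1 of 12 in each late and intermediate library. The part of macrophages in the H3K27ac of the Cybb region was not tested.

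The 2 members called higher in late cells, a smaller share than over all regions, lay near Enc1 and inside Tmcc1. Enc1 is an actin-binding protein and Tmcc1 a protein of the endoplasmic reticulum. The Enc1 region (chr13:97376236-97376588) had 94, 262 and 131 bp in late libraries and none in either intermediate library (limma adjusted p = 0.0318). The Tmcc1 region (chr6:116047421-116047732) had 98, 138 and 133 bp in late libraries and none in the intermediate ones (limma adjusted p = 0.0269). Each therefore had a peak in early and late libraries and none in the stage between.

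H3K4me1, which the rule did not use, was already present in Hep at part of the members. Within 1000 bp of the midpoint a peak was found at 234 and 315 members in Hep (32.3% and 43.5%), 198 and 558 in early (27.3% and 77.1%), 348 and 361 in intermediate, 277, 387 and 182 in late, and 242 and 96 in BEC libraries (33.4% and 13.3%). The early libraries differed from each other far more than the Hep ones, and over all distal regions too they had 16.4% and 48.8%. In Hep all distal regions had 44.4% and 50.9%, and in BEC 57.9% and 30.9%. Both Hep libraries had H3K4me1 at 207 members (28.6%), and neither had it at 382 (52.8%). H3K4me1 in at least 1 early library and no Hep library was found at 281 members (38.8%), in both early and no Hep library at 78, and in none of the 11 libraries at 45.

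H3K4me1 is set out next by whether later cells had H3K27ac. Of the 103 members with H3K27ac in all 5 later libraries, 63.1% had no H3K4me1 in Hep, against 39.3% of the 145 with none. H3K4me1 was missing in both BEC libraries at 39.8% of the 103, against 80.7% of the 145. In early 1 and early 2 it was present at 40.8% and 80.6% of the 103, against 22.1% and 71.0% of the 145. These shares are descriptions, and the stronger early scores of the 103 stand beside them.

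H3K4me1 coverage was tested with the same model over 32606 distal regions that had an H3K4me1 peak in 2 or more libraries. Of the 724 members 610 were tested, 7 of them through the early libraries alone. In early cells compared with Hep, 24 members were higher (3.93% of those tested) and 9 lower (1.48%), where 0.383% of all regions were higher and 5.74% lower. The 7 tested through the early libraries alone could come out in 1 direction only and are among the 24, and without them 17 of 603 were higher (2.82%). Of the 24, 16 had H3K4me1 in at least 2 libraries other than the early ones. The 9 lower include the regions near Slc13a5 and Cdc42, which had H3K4me1 in the Hep libraries alone and could only be lower. The median difference was 0.25 in members and -0.16 in all regions. Regions shared with Hep had 1 higher and 123 lower of 1896, and those shared with BEC 21 higher and 2 lower of 772. With quantile normalization 27 members were higher and 4 lower. Without Hep 1 the counts were 10 higher and 10 lower, and without early 2, which has 48939 H3K4me1 peaks against 12785 in early 1, 17 higher and 34 lower, with a median difference of 0 in members and -0.52 in all regions.

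At the 6 members with the largest increases neither Hep library had H3K4me1, so no fold is given against Hep. The region 49.7 kb from Hs6st1, an enzyme that sulphates heparan chains (chr1:36118052-36118625), carried 422 and 589 bp of H3K4me1 in early libraries, with none in Hep (limma adjusted p = 0.0299). It kept 405 and 408 bp in intermediate and 129, 480 and 63 bp in late libraries, and BEC had none. This region was also among the 8 best-ranked by H3K27ac. The region 11.8 kb from Fam72a (chr1:131539690-131540176) carried 478 and 463 bp in early libraries, with none in Hep (limma adjusted p = 0.0453). The region inside Ctnnbl1, a spliceosome-associated protein (chr2:157784334-157784954), carried 398 and 662 bp in early libraries, with none in Hep (limma adjusted p = 0.0263). At the Cox20 region H3K4me1, like H3K27ac, was seen in the early libraries alone, with 254 and 315 bp. That region entered the test through these peaks alone, so no p is given.

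The 9 members lower in H3K4me1 in early cells, where they carry H3K27ac, included regions near Bccip, Vps50, Mical3, Slc13a5, Klf6 and Cdc42. None of these 6 had H3K4me1 in an early library. The Slc13a5 and Cdc42 regions had it in the Hep libraries alone, so they entered the test through Hep peaks and could only be lower. Only 5 of the 9 had no Hep or BEC H3K27ac peak within 1000 bp. The part of such neighbours in the H3K4me1 counted at the others was not tested. The Slc13a5 region (chr11:72281361-72281610), 14.2 kb from this citrate transporter gene, was free of H3K4me1 in early libraries, with 354 and 378 bp in Hep, and for this reason no p is given. Its H3K27ac was 239 and 143 bp in early libraries and 0 in the other 9. The Klf6 region (chr13:5811939-5812220), 49.3 kb from this zinc finger factor gene, had none in early libraries and 425 and 161 bp in Hep (limma adjusted p = 0.0419). The Bccip region (chr7:133725968-133726447) had none in early libraries and 619 and 512 bp in Hep (limma adjusted p = 0.0239).

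In late compared with early cells, 19 members were lower in H3K4me1 (3.11%) and none higher, where 1.63% of all regions were lower and 0.0859% higher. The 19 include the 7 members tested through the early libraries alone, which could only be lower, and without them 12 of 603 were lower (1.99%), a share near that of all regions. The median difference was -0.51 in members and 0.04 in all regions. Its direction rested on early 2, since without that library the median was 0.23 in members, with 310 above 0 and 193 below, and 0.46 in all regions. With late 1 or late 3 left out no member and no region of any kind was called, and without early 1 the count lower was 52. The region 20.9 kb from the nearer end of Orm1, an acute phase protein gene (chr4:63323373-63323678), had no H3K4me1 in late libraries against 212 and 396 bp in early ones, and none in Hep, intermediate or BEC libraries. It is 1 of those 7, so no p is given. The region 107 kb from the nearest start of Foxp1 (chr6:98920408-98920814) had none in late libraries, against 196 and 542 bp in early ones (limma adjusted p = 0.0273). Its H3K27ac was also lower in late cells than in intermediate ones, with 0 bp in all 3 late libraries against 165 and 283 bp in intermediate libraries (limma adjusted p = 0.00132).

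In BEC compared with early cells, 45 members were lower in H3K4me1 (7.38%) and none higher, where 3.05% of all regions were lower and 5.44% higher. Without the 7 members tested through the early libraries alone, 38 of 603 were lower (6.30%). The median difference was -0.74 in members and 0.23 in all regions, but 0 in members and 0.77 in all regions without early 2. Regions shared with BEC had 16 higher and 1 lower of 772, and those shared with Hep none higher and 225 lower of 1896. The count of members lower was 15 without early 2, 18 without BEC 1, which has 62294 peaks against 25001 in BEC 2, and 69 without early 1. With BEC 2 left out, 30 were lower and 9 higher. The region 21.6 kb from Cilp, a cartilage matrix gene (chr9:65242980-65243560), had none in BEC against 711 and 511 bp in early libraries (limma adjusted p = 0.0251). The region 14.5 kb from the nearer end of Il10, an interleukin gene (chr1:131039467-131040263), had none in BEC against 322 and 465 bp in early ones (limma adjusted p = 0.0278).

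**Figure D5:**
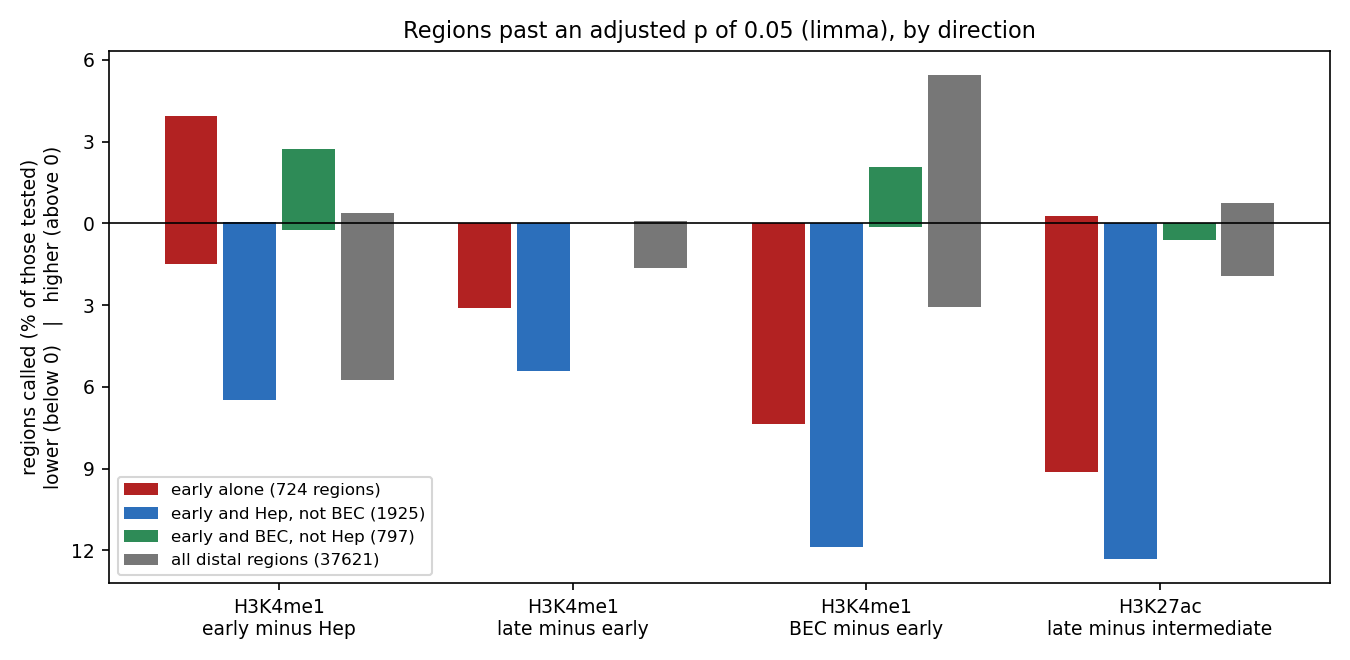
Percentage of tested regions called higher (above 0) and lower (below 0) at an adjusted p under 0.05 (limma) in each comparison. From left to right the bars are members (labelled early alone), regions shared with Hep, regions shared with BEC and all distal regions. In H3K4me1, 3.93% of members were higher in early cells than in Hep, against 0.383% of all regions. Without the 7 tested through early peaks alone the share was 2.82%. In H3K27ac, 9.12% of members were lower in late than in intermediate cells, against 1.93% of all regions. In the H3K27ac comparison the spread includes Hep and BEC, where the rule left members without coverage.

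H3K27me3 was scarce at the members, as it was at all distal regions, where 0.0399% to 1.46% had a peak in a library, against 0% to 1.10% of members. It was found at 0 and 8 members in Hep, 1 and 1 in early, 1 and 0 in intermediate, 5, 2 and 2 in late, and none in BEC libraries.

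Members were scattered over many genes. They were nearest to 654 protein-coding genes, 58 of them nearest to at least 2 members and 10 to at least 3. Within 50 kb of another member lay 87 (12.0%), in 42 clusters. Foxp1, a forkhead repressor, and Chrm3, the muscarinic M3 receptor, were nearest to 4 members each. Of the 4 near Chrm3, which span 92559 bp of chromosome 13 inside the gene, 1 had H3K27ac in all 5 later libraries (chr13:10273960-10274427, 262 and 230 bp in intermediate and 117, 363 and 167 bp in late libraries). The others had it in at most 1 intermediate and in no late library. Neighbouring members thus differed in what later cells kept.

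Ets2, a transcription factor of the ETS family, Slc24a3, Utrn and Esrrg were nearest to 3 members each. The 3 regions inside Esrrg, an orphan nuclear receptor, had different fates. One (chr1:187910761-187911059) had 257 and 267 bp of H3K27ac in intermediate and 80, 290 and 209 bp in late libraries. Another (chr1:187883468-187883789) had 146 and 0 bp in intermediate and none in late libraries. In that second region H3K4me1 covered 322 and 326 bp in early libraries and no base in the other 9, and it entered the test through those peaks alone, so no p is given. The promoter H3K4me3 of Esrrg was 0 and 207 bp in early cells, against 261 and 797 bp in Hep.

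The promoters of the 654 nearest genes were mostly in an active state in both early cells and Hep. H3K4me3 within 2500 bp of the start was present in both early and both Hep libraries at 63.6% of the nearest genes, against 47.7% of 21887 protein-coding genes, and absent from all 4 at 26.6% against 44.3%. The shares at genes nearest to other distal regions were not counted, so whether these differences are particular to members is unknown. Promoter H3K4me3 was present in both early libraries and absent from Hep at 12 nearest genes (1.83%), against 1.07% of all genes. Of the 523 nearest genes that could be tested, 4 (0.765%) had higher promoter H3K4me3 in early cells than in Hep and 2 (0.382%) lower. Over all 13476 promoters, 0.349% were higher and 0.312% lower. With quantile normalization 13 nearest genes were higher and 2 lower. No call was left when either early or either Hep library was omitted.

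The genes with higher promoter H3K4me3 in early cells were Osbpl3, Glis3, Fermt1 and Ddr1. Osbpl3, an oxysterol-binding protein, carried 1148 and 1300 bp in early libraries, with none in Hep (limma adjusted p = 0.00658), and its member inside the gene, 71.4 kb from the start (chr6:50384522-50384810), had H3K27ac in the early libraries alone. An H3K27ac peak of Hep lay 114 bp from that member. Ddr1, a collagen receptor listed among the biliary markers, carried 610 and 688 bp in early libraries, with none in Hep (limma adjusted p = 0.0103). The Ddr1 member, 3.96 kb from the start (chr17:35708563-35708978), had 392 and 248 bp of H3K27ac in early libraries, 0 and 131 bp in intermediate libraries and none in late libraries. Hep and BEC H3K27ac peaks lay 300 and 344 bp from it. The Ddr1 promoter itself kept H3K4me3 in all late and BEC libraries, with 347, 664 and 651 bp in late and 808 and 1302 bp in BEC.

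Glis3, a zinc finger factor, had members 289 and 106 kb from its start, and both had H3K27ac in all 5 later libraries. Its promoter carried 1721 and 1607 bp of H3K4me3 in early cells, compared with 0 and 236 bp in Hep (limma adjusted p = 0.0425). Fermt1, a kindlin of integrin adhesion, carried 626 and 933 bp in early libraries, with none in Hep (limma adjusted p = 0.0291), and its member was found in the early libraries alone. BEC and Hep H3K27ac peaks lay 81 and 837 bp from this member. The genes with lower promoter H3K4me3 were Arid1b, a chromatin remodelling subunit (0 and 299 bp in early, against 1663 and 1650 bp in Hep, limma adjusted p = 0.0235), and Irs2, an adaptor of the insulin receptor (0 and 0 bp in early, against 324 and 523 bp in Hep, limma adjusted p = 0.0323).

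In late compared with early cells 9 nearest genes (1.72%) had higher and 7 (1.34%) lower promoter H3K4me3. Over all promoters 1.45% were higher and 1.48% lower, so the nearest genes stood near the share of all promoters. The median difference was -0.55 in the nearest genes. Over all promoters it was itself -0.54 in this comparison, against -0.00417 with quantile normalization and 0.30 with peaks of equal length. The split was 16 higher and 11 lower with quantile normalization, 24 and 4 with peaks of equal length, and 1 and 9 with equal numbers of peaks. No call was left without early 2, while 3 were left without early 1 and 4 without late 3, and 30 were made without late 1.

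The 6 with the largest falls were Asgr1, Abcg8, Itih3, Cyp3a25, Lipc and Slc26a1. Asgr1, the hepatocyte lectin that clears glycoproteins, had 0, 142 and 0 bp of promoter H3K4me3 in late libraries, against 1642 and 1385 bp in early ones (limma log2 difference -3.58, adjusted p = 0.00127). The Asgr1 member, 1.39 kb from the start (chr11:70052458-70052737), had 51, 221 and 0 bp of H3K27ac in late libraries and 267 and 251 bp in early ones. Lipc, the hepatic lipase, had none in late libraries against 420 and 513 bp in early ones (limma adjusted p = 0.00568). Its 3 members lay within 16257 bp of chromosome 9 inside the gene. Among the late libraries only late 2 had H3K27ac there, 269 bp in 1 region, while the 3 regions had 0 and 106, 278 and 129, and 119 and 0 bp in the intermediate libraries. Cyp3a25, a cytochrome P450, had none in late libraries against 450 and 742 bp in early ones (limma adjusted p = 0.00294). Abcg8 is a sterol exporter, Itih3 a plasma protein and Slc26a1 a sulphate transporter, and their members lay 5.59 to 6.74 kb from the start.

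The 6 with the largest gains were Sparc, Spon1, Plet1, Disc1, Podn and Scara3, and none of them had promoter H3K4me3 in early cells or Hep. All 6 had it in both intermediate and both BEC libraries. Sparc, a matrix glycoprotein, carried 199, 1431 and 876 bp in late libraries, with none in early ones (limma adjusted p = 0.0125). The Sparc promoter had 614 and 1221 bp in intermediate libraries and 1799 and 2246 bp in BEC. The Sparc member, inside the gene (chr11:55405811-55406309), had 222 and 179 bp of H3K27ac in the early libraries that lacked promoter H3K4me3. Plet1, a surface protein of epithelial progenitors, carried 195, 839 and 615 bp in late libraries, with none in early ones (limma adjusted p = 0.0217). The Plet1 member, 68.2 kb from the start (chr9:50425917-50426345), had 341 and 184 bp of H3K27ac and 239 and 705 bp of H3K4me1 in early libraries. The stellate and fibroblast markers with H3K4me3 numbered 2, 2 and 3 of 12 in late libraries, against 1 and 1 in early ones. They numbered 3 and 2 in intermediate libraries and 1 and 2 in BEC. The part of stellate cells in the gain at Sparc was not tested.

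Few members lay near the genes of the lists fixed for liver injury and cell identity. Within 100 kb of a promoter of the 20 biliary markers lay 6 members (0.829%, against 0.484% of all distal regions), of 18 cell cycle genes 4 (0.552% against 0.308%), of 21 hepatocyte function genes 4 (0.552% against 0.322%) and of 16 haem and porphyrin genes 3 (0.414% against 0.245%). Near 20 NRF2 and oxidative stress genes lay 2 (0.276% against 0.412%), near 20 acute phase and inflammation genes 2 (0.276% against 0.383%), near 16 Notch pathway genes 2 (0.276% against 0.444%) and near 18 YAP targets 2 (0.276% against 0.436%). Hepatocyte transcription factors had 3 members (0.414% against 0.335%), and TGF-beta genes, bile acid genes and macrophage genes had 1 each. None lay near the AP-1 genes themselves, the unfolded protein genes, the matrix genes, the growth factor receptors, the fetal liver genes or the stellate, endothelial, lymphocyte and neutrophil markers. With counts of 0 to 6 these shares describe the lists and were not tested.

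Some listed genes had members with clear levels. Il6ra, the interleukin 6 receptor, held a member (chr3:89896635-89896839) with 205 and 165 bp of H3K27ac in early, 151 and 168 bp in intermediate and 0, 134 and 0 bp in late libraries. Cdk6, a kinase of the G1 phase, held 1 (chr5:3387225-3387456) with 193 and 172 bp in early, 194 and 191 bp in intermediate and 163, 201 and 173 bp in late libraries. That region is 232 bp long and 193 bp is the shortest H3K27ac peak of early 1, so the covered length had little room to vary. Nt5e, the ecto-nucleotidase CD73 and a YAP target, had a member 51.0 kb away (chr9:88276219-88276568) with 259 and 186 bp in early, 307 and 200 bp in intermediate and 189, 218 and 185 bp in late libraries.

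Members also lay near Gstm7 and Abcb4. Gstm7, a glutathione S-transferase, had 2 members within 1341 bp of chromosome 3. At the one nearer to the gene (chr3:107921478-107921779) H3K27ac covered 302 and 123 bp in early libraries and no base elsewhere. H3K4me1 there was 0, 7 and 0 bp in late libraries, against 305 and 435 bp in early ones (limma log2 difference -2.19, adjusted p = 0.0406), and Hep had 298 and 212 bp. Abcb4, the phospholipid exporter of the bile canaliculus, had a member 16.2 kb away (chr5:8877183-8877490) with 223 and 223 bp of H3K27ac in early, 199 and 239 bp in intermediate and 143, 178 and 205 bp in late libraries.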

How the data were processed

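The data were 44 peak lists of 11 libraries and 4 histone marks. Per the submitters' processing notes, the authors used Bowtie2, Picard, deepTools and MACS2 with the mouse genome build mm10. No source used here states versions, settings or the filter on peaks. The deposited lists give each peak's start and end and an undefined score of the authors, which served here for ranks inside each list and nothing else. Read depth is unknown, so no counting interval is given.

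H3K27ac peaks of all libraries that overlap by at least 1 bp were joined. For tests, base pairs under peaks were summed within the region (H3K27ac), within 1000 bp each side of its midpoint (H3K4me1, H3K27me3) or within 2500 bp each side of a promoter (H3K4me3). Log2 of the sum plus 100 bp was fitted with limma 3.58.1 in R 4.3.3 (lmFit and eBayes), all 11 libraries and 5 stages in 1 fit per mark. P-values were adjusted by Benjamini-Hochberg over all features with a peak in 2 or more libraries. The fits were checked on simulated data. Genes and starts came from RefSeq (GRCm38.p6), with strand for 17492 of 21887 protein-coding genes. For the others the end with more H3K4me3 was used in the promoter test, and the nearer end for distances.

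The members and gene lists were chosen with earlier results of these data known. Regions named are the 8 best by the worse of their 2 early ranks, the 6 best found in all and in none of the 5 later libraries, the genes nearest to most members, up to 3 members per gene list, and up to 6 per comparison and direction among those called. Symbols beginning Gm or ending Rik and chromosome 18 were left out. A region that this rule names is not reported here. Other settings tried are given in the closing section.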

Additional observations from a re-analysis of the deposited data

How the results depend on the processing

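The number of member regions, 724, became 482 when early peaks had to cover 50% of the region and 1213 with an equal number of peaks per library. Leaving out 1 library gave 724 to 4445. It stayed within 1.5 times under the other settings, among them only the top 50% of peaks by score (532 regions, of which 190 overlap a member).

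Member regions called in H3K4me1 of early against Hep numbered 33, and 20 to 51 with 1 library left out. Of late against early they numbered 19, against 52 with quantile normalization, 6 with 500 bp added before the log, 29 with equal numbers of peaks, 7 with a trended variance prior and 0 to 52 with 1 library left out. Of BEC against early they numbered 45, against 71 with quantile normalization, 5 with 500 bp added, 28 with peaks of 500 bp and 15 to 69 with 1 library left out. H3K27ac calls of late against intermediate numbered 68, against 45 with equal numbers of peaks and 67 to 150 with 1 library left out. Nearest genes called in promoter H3K4me3 of early against Hep numbered 6, against 15 with quantile normalization, 1 with 500 bp added, 1 with equal numbers of peaks, 22 with peaks of 500 bp and 0 with any of the 4 libraries left out. Of late against early they numbered 16, against 27, 4, 10 and 28 in that order, 10 with a trended variance prior and 0 to 30 with 1 library left out.

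With the replicate number as a block, H3K4me1 calls among members were 0 in all 3 comparisons, promoter calls 18 and 20, and H3K27ac calls 64. Deviations of same-numbered libraries correlated at -0.0492 to 0.108 between the stages and marks compared, and at up to 0.213 (intermediate 1 and late 1, H3K4me3) and down to -0.255 (late 2 and BEC 2, H3K4me1) elsewhere. Not every pair was above 0.1, so the numbers were not taken to pair samples. Members with no Hep or BEC peak within 1000 bp, a setting added after seeing the data, kept 29, 19, 41 and 54 calls in H3K4me1 of early against Hep, late against early, BEC against early and in H3K27ac. The 29 were 24 higher and 5 lower. The members' median difference turned in H3K4me1 of late against early without early 2 (0.23, where it was -0.51) and in promoter H3K4me3 of late against early with peaks of 500 bp (0.29, where it was -0.55). It was 0 without early 2 in the other H3K4me1 comparisons, and in promoter H3K4me3 of early against Hep without early 1 or with peaks of 500 bp. H3K4me1 calls of early against Hep were mostly lower without early 2 (17 higher and 34 lower). The causes of these shifts were not tested. Peak lists without depth cannot tell absence from weak signal.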
